A study of Mus musculus with 59 samples.

Results

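The 100 genes described here were those whose RNA stood highest in the prefrontal cortex of control mice at days 21–34, relative to younger and older control mice. They were ranked by a score on the log2(RPKM + 0.5) scale, where RPKM is the number of reads scaled to the length of the gene and the depth of the library. The score was the mean over control mice of days 21–34 minus the highest of the means of days 3–7, days 10–12 and days 55–319. The 100 rows with the highest score were taken from 14896 rows with at least 1 RPKM in at least 4 control mice, out of 18610 rows in the table. The members were thus chosen by control values, which are given as a description. The transgenic mice, whose values the rule did not use, were used for the tests. The windows and the gene lists were chosen with earlier results of these data known. All 100 members passed the filter, and each had at least 1 RPKM in some control mouse outside days 21–34.

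The study sequenced polyA RNA from 59 mice of the C57Bl/6 strain, 29 controls and 30 transgenic animals, with 1 library per mouse. Transgenic mice were GLUD2+/- and carried a linearised human bacterial artificial chromosome (RP11-610G22) that holds GLUD2, introduced by pronuclear injection, and controls were their littermates. Mice of 2 transgenic lines, a and b, and of both sexes were sampled between day 3 and day 538. At days 3–7 there were 8 control and 6 transgenic mice, at days 10–12 there were 4 and 5, at days 21–34 there were 4 and 5, at days 55–319 there were 12 and 13, and 1 mouse of each genotype was of day 538. The control mice of days 21–34 were mouse 13 (day 21, line a), mouse 14 (day 23, line b), mouse 15 (day 32, line b) and mouse 16 (day 34, line a). The transgenic mice of that window were mouse 41 (day 21, line a), mouse 42 (day 23, line b), mouse 43 (day 24, line a), mouse 44 (day 32, line b) and mouse 45 (day 34, line a). GLUD2 itself, which checks the genotype labels, was at 0.14–0.65 RPKM in controls and at 3.33–10.1 RPKM in transgenic mice. Library depth, estimated from the steps of low RPKM values, was 8.85–12.7 M reads. All 9 markers of cortical neurons on a fixed list were present in the table, and their summed level was 339–534 RPKM in the control and 403–566 RPKM in the transgenic mice of days 21–34.

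Oligodendrocytes wrap axons with myelin, a stack of membrane rich in cholesterol, galactolipids and a few abundant proteins. In rodent cortex, precursors leave the cell cycle, pass through a newly formed stage and then switch on the genes of the myelin sheath, and most of this happens in the weeks after birth. The sheath is then maintained through adult life. Genes that make myelin were the largest group among the members that belonged to a gene list. The other members included haemoglobins, a transporter of the vessel wall, short non-coding RNAs and enzymes of monoamine neurons.

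Of the members, 68 were protein coding, 11 were short RNAs (microRNA, snRNA, snoRNA or mitochondrial tRNA loci) and 9 had no symbol in the annotation used. Short RNA loci made up 1.95% of all rows that passed the filter. The control score ran from 1.70 (ENSMUSG00000092235, a row without symbol) to 0.40 (Gng8, a G protein gamma subunit). The first rows outside were Prr16, with a control score of 0.40, and Nfasc, with 0.39, so the hundredth place marks no gap. In controls the second-highest window was days 55–319 for 66 members, days 10–12 for 22 and days 3–7 for 12. In only 2 members, Gsn and 1190002N15Rik, were all 4 control mice of days 21–34 above every control mouse of the other windows, against 0.0403% of all rows, and these values are part of what chose them.

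The same score, computed in transgenic mice, was above 0 in 70 of the 100 members, against 15.1% of all rows. Its median was 0.27 over the members and -0.23 over all rows. For the other 30 members the highest transgenic window was days 10–12 in 15, days 55–319 in 11 and days 3–7 in 4. The score was above 0 for 17 of the 20 members ranked highest in controls, for 24 of the next 30 and for 29 of the last 50. Among the 100 rows with the highest score in transgenic mice, 34 were members. In no member, and in 0% of all rows, were all 5 transgenic mice of days 21–34 above every transgenic mouse of the other windows, so the groups overlapped throughout.

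**Figure D1:**
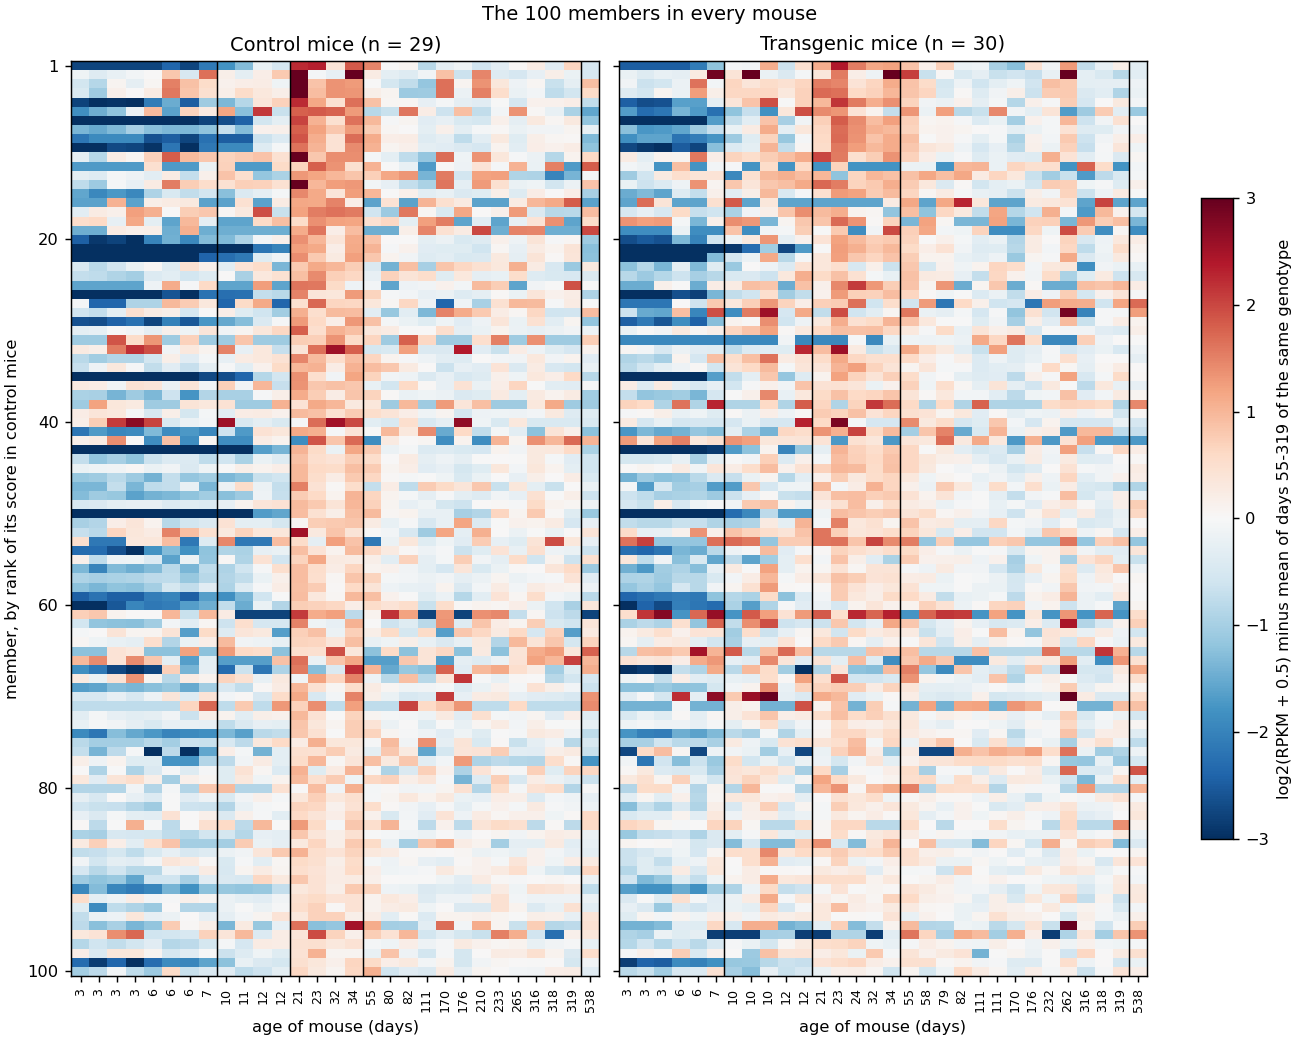
Heat map of log2(RPKM + 0.5) of the 100 members (vertical axis, by rank in controls) in each mouse (horizontal axis, by age in days), relative to the mean of days 55–319 of the same genotype, with black lines between the age windows. In controls the mean of the columns of days 21 to 34 is above that of days 55–319 in every row, because it chose the rows. A single control column need not be red: Gm15723 had 0 reads in mouse 13. In transgenic mice the 5 columns of that window are mostly red in the upper rows and mixed in the lower ones. Exceptions among the upper rows include Mir221 and ENSMUSG00000090413, which had 0 reads in mouse 41.

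Each window difference in transgenic mice was tested with limma on all 14896 rows, with line and sex as covariates and Benjamini-Hochberg adjustment. From days 10–12 to days 21–34, 19 members rose, against 11.3% of all rows, and none fell (none at an unadjusted p under 0.05 either), against 16.6% of all rows. From days 21–34 to days 55–319, 19 members fell, against 2.14% of all rows, and none rose (3 at an unadjusted p under 0.05), against 1.58%. Against days 3–7, 59 members were higher at days 21–34, compared with 26.1% of all rows, and 1 member, Gm15723, was lower, against 36.9%, a call lost without covariates and without mouse 42 or mouse 45. A total of 8 members were higher in all 3 tests, against 0.101% of all rows, that is 15 rows. The 8 were ENSMUSG00000092235, Gsn, Mog, Cldn11, Tspan2, Prom1, Pdlim2 and Opalin. The median difference over the members was 0.37 against days 10–12, 0.44 against days 55–319 and 0.999 against days 3–7, and over all rows it was -0.04, -0.01 and -0.09. The count against days 55–319 was 5 without transgenic mouse 42 and 12 without mouse 41, and the count against days 10–12 was 12 without mouse 36. The count for all 3 tests was 2 without mouse 42 and 4 without mouse 43.

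**Figure D2:**
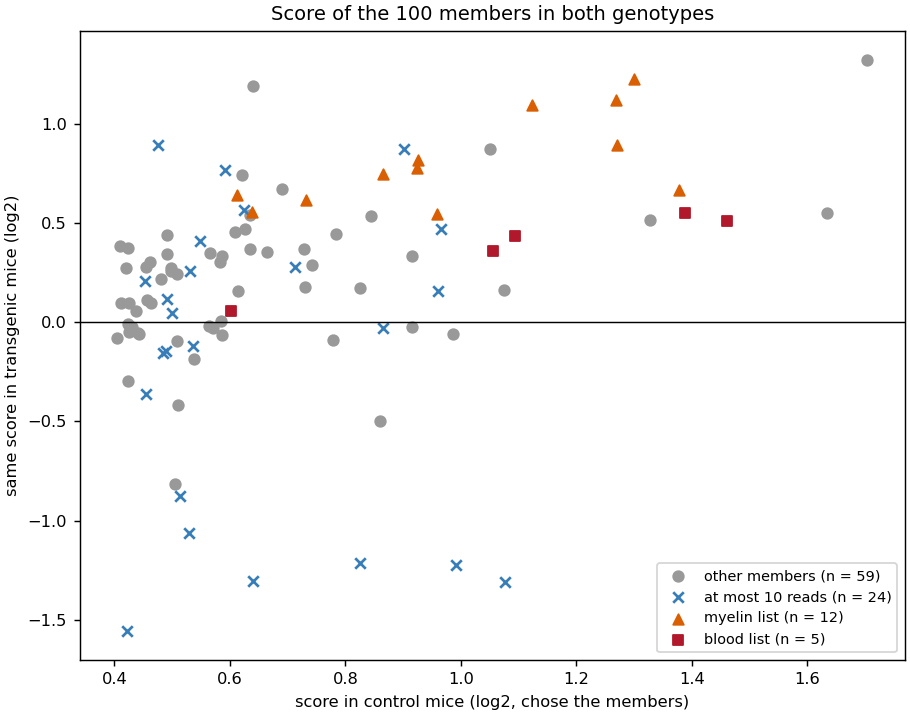
Score of each member in control mice (horizontal axis, log2, the value that chose it) and in transgenic mice (vertical axis, log2), with 1 point per member and symbols for the myelin list, the blood list and members with at most 10 reads in every library of days 21–34. All 12 myelin members and all 5 blood members lie above 0 on the vertical axis, and 12 of the 24 members with at most 10 reads do.

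Genes of the myelin sheath formed the largest group. Of a list of 20, 12 were members, among them Ugt8a, Gsn, Mog, Cldn11, Cnp, Mal, Mag, Fa2h, Mbp, Mobp and Opalin. The list was written with earlier results of these data known. In transgenic mice 15 of the 20 rose from days 10–12 to days 21–34 and none fell, against 11.3% and 16.6% of all rows. The median difference of the list was 1.36. At days 21–34, 19 of the 20 stood above days 3–7, against 26.1% of all rows. Only 5 of the 20, all members, were higher at days 21–34 than at days 55–319, against 2.14% of all rows: Gsn, Ugt8a, Mog, Cldn11 and Opalin. The summed level of the 12 members was 894, 1900, 1450, 1150 and 1370 RPKM in transgenic mice 41 to 45. It ranged from 335 to 1220 RPKM (median 546) in the transgenic mice of days 10–12 and from 379 to 1420 RPKM (median 680) in those of days 55–319. The 3 ranges overlapped, and the 1220 RPKM belonged to mouse 38 of day 10. Since the tissue was sequenced in bulk, fewer oligodendrocytes and less of these RNAs per cell cannot be told apart.

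Mog encodes a glycoprotein on the outer face of the myelin sheath. Its level was 89.0, 51.6, 32.4 and 76.8 RPKM in control mice 13 to 16. In transgenic mice it was 32.0, 69.5, 54.7, 38.5 and 46.1 RPKM at days 21–34. The day 10–12 values were 9.57, 16.3, 33.6, 9.30 and 20.2 RPKM, and days 55–319 spanned 10.6 to 39.99 RPKM with a median of 20.6. Mouse 38 of day 10, at 33.6 RPKM, was above mouse 41 of day 21, and the other day 10–12 mice were below all 5. The log2 difference was 1.52 ± 0.31 (SE, adjusted p = 0.000661, limma) against days 10–12 and 1.13 ± 0.26 (adjusted p = 0.0131) against days 55–319. Without transgenic mouse 42 the adjusted p of the second difference was 0.0694.

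Opalin, a membrane protein of the oligodendrocyte lineage found late in its maturation, was near 0 in the first week, at 0–0.12 RPKM in the transgenic mice of days 3–7. It was at 0.677, 1.02, 2.88, 1.32 and 1.33 RPKM in transgenic mice of days 10–12 and at 4.81, 10.7, 9.95, 9.23 and 9.76 RPKM at days 21–34, with no overlap. At days 55–319 it spanned 3.29 to 8.06 RPKM with a median of 5.61, which overlapped only mouse 41. Its log2 difference was 2.32 ± 0.23 against days 10–12 (limma adjusted p = 6.13e-08) and 0.68 ± 0.19 against days 55–319 (adjusted p = 0.0427), and the second was lost when any of mice 42, 43, 44, 45 or 37 was left out. Mal, a proteolipid of myelin membranes, had the largest rise of the list. It was at 6.59, 10.4, 25.2, 7.47 and 15.8 RPKM at days 10–12 and at 51.96, 127, 111, 90.04 and 103 RPKM at days 21–34, a log2 difference of 2.95 ± 0.35 (limma adjusted p = 1.07e-06). Opalin and Mal also stood higher at days 55–319 than at days 10–12, by 1.64 ± 0.19 and 2.10 ± 0.29 on the log2 scale (limma adjusted p = 1.1e-07 and 1.69e-06).

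Gsn encodes gelsolin, which severs actin filaments. It was at 24.2, 50.9, 41.3, 32.7 and 31.2 RPKM in transgenic mice 41 to 45, and at 11.9 to 25.3 RPKM (median 15.1) at days 55–319, where the highest adult was above mouse 41 and below the other 4. The differences were 0.89 ± 0.24 (limma adjusted p = 0.00737) against days 10–12 and 1.14 ± 0.20 (adjusted p = 0.00262) against days 55–319. Both calls held whichever of the 10 transgenic mice of days 10–34 was left out, which was also true of Prom1 and of no other member. Cldn11, the claudin of the tight junctions between myelin layers, was at 61.1, 124, 99.4, 81.3 and 90.9 RPKM at days 21–34. It was higher by 1.16 ± 0.34 than at days 10–12 (limma adjusted p = 0.0118) and by 1.11 ± 0.28 than at days 55–319 (adjusted p = 0.0264, lost without mouse 42 or mouse 43). Tspan2, a tetraspanin of oligodendrocytes that is on none of the lists, was higher by 0.87 ± 0.31 and 0.95 ± 0.26 (limma adjusted p = 0.0348 and 0.0361). Its first call was lost without any of mice 42, 43, 45, 36, 37, 39 or 40, and its second without any of mice 41, 42, 43 or 45.

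Of the tests against days 10–12 and days 55–319, Ugt8a, the enzyme that makes galactosylceramide for the sheath, passed only the second. In transgenic mice it was at 13.5, 19.3, 40.9, 10.3 and 17.1 RPKM at days 10–12 and at 20.9, 47.6, 31.6, 22.7 and 27.7 RPKM at days 21–34, and the 2 windows overlapped through mouse 38. The difference of 0.66 ± 0.38 did not pass (limma adjusted p = 0.203). Against days 55–319, at 5.51 to 17.5 RPKM with no overlap, Ugt8a was higher by 1.43 ± 0.32 (adjusted p = 0.0106, and 0.0618 without mouse 42). Mobp, a cytoplasmic myelin protein, rose by 1.75 ± 0.60 from days 10–12 (limma adjusted p = 0.0308, lost without any of 7 of the 10 mice of days 10–34) and Fa2h, which hydroxylates myelin lipids, by 1.27 ± 0.37 (adjusted p = 0.0114). Mbp, Cnp and Mag passed neither test, with differences of 0.97 ± 0.47, 0.54 ± 0.34 and 0.85 ± 0.52 against days 10–12 and of 0.64 ± 0.40, 0.83 ± 0.29 and 0.80 ± 0.44 against days 55–319.

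**Figure D3:**
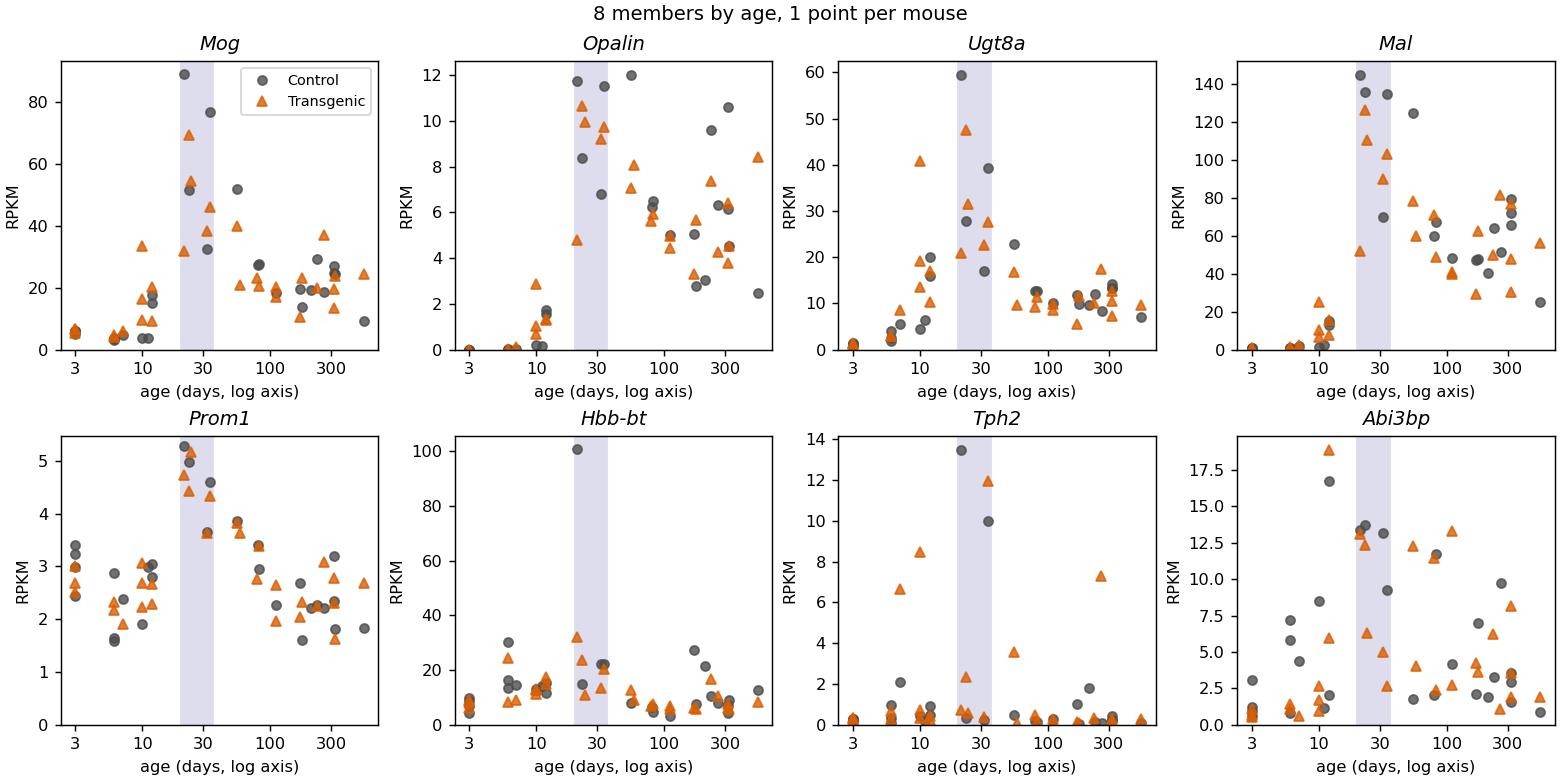
RPKM of 8 members against age in days (log axis), with 1 point per mouse, grey circles for controls and orange triangles for transgenic mice, and days 21–34 shaded. Mog, Opalin, Ugt8a, Mal and Prom1 were high in most mice of the shaded window in both genotypes. Tph2 was high in only some mice at several ages, and Hbb-bt was highest in control mouse 13, at 100.6 RPKM.

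The order of the mice was nearly the same for every myelin member. In controls, 11 of the 12 were highest in mouse 13 and all 12 were lowest in mouse 15. In transgenic mice all 12 were highest in mouse 42 and all 12 lowest in mouse 41. Summed over the 12, the control mice 13 to 16 were at 2460, 1490, 961 and 2090 RPKM. Over all 100 members, 50 were highest in control mouse 13 and 59 lowest in control mouse 15, and 51 were highest in transgenic mouse 42 and 40 lowest in transgenic mouse 41. The summed level of 11 striatal neuron genes ran the other way in controls, at 127 and 137 RPKM in mice 13 and 16 and at 559 and 691 RPKM in mice 14 and 15. In transgenic mice it was 177 RPKM in mouse 41, the lowest for myelin too, and 397–815 RPKM in mice 42 to 45. Its part in the order was not tested. Control mice 13 and 16 were of line a and mice 14 and 15 of line b, so line cannot be told apart from this split. The 12 myelin members were kept whichever control mouse of days 21–34 was left out of the rule, as were 54 members in all, and without both mouse 13 and mouse 16 the rule gave 50 of the 100.

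The promoters of 3 myelin members with different courses are shown with the letters that SOX10 and MYRF, transcription factors known to drive myelin genes, are known to read. Each is the 250 bases before the RefSeq start on the GRCm38.p6 build, on the gene's strand, with capitals for a match to the SOX letters ACAAAG or ACAATG, or the MYRF letters CTGGCAC or CTGGTAC, on either strand. The 3 motif sets do not contain one another. The window of Mog lies at chr17:37023399-37023648 (minus strand), that of Opalin at chr19:41077114-41077363 (minus strand) and that of Ugt8a at chr3:125938653-125938902 (minus strand).
Mog: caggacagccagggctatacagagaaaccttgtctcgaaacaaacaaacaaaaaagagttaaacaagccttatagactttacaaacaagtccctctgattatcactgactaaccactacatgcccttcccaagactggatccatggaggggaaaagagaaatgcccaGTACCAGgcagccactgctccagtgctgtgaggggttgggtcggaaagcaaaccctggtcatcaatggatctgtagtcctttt
Opalin: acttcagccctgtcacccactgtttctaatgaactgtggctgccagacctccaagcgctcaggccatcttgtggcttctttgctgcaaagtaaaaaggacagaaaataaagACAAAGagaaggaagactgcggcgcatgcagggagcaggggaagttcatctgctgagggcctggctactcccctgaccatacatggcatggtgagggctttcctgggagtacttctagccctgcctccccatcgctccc
Ugt8a: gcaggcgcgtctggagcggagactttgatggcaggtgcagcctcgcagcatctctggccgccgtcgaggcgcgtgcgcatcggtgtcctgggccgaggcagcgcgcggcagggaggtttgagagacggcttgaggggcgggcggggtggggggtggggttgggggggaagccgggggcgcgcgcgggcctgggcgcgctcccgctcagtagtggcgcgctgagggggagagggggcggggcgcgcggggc
Mog held 1 MYRF match, read on the other strand, Opalin held 1 SOX match and Ugt8a held neither. Of the 53 members with a promoter in the RefSeq table, 7 (13.2%) held a MYRF match, against 5.86% of 27018 genes, and 3 of the 9 myelin members with an entry did. A SOX match was in 13 of the 53 (24.5%), against 25.5% of all genes, and in 4 of the 9 myelin members. An E-box, CAGCTG, was in 6 of the 53 (11.3%), against 12.8%. The shares of all genes cover every gene with a promoter in the RefSeq table, also those that did not pass the filter. A match describes the letters and is not evidence of binding.

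Of 17 tested genes of newly formed oligodendrocytes, 6 fell and none rose from days 10–12 to days 21–34 in transgenic mice, against 16.6% of all rows that fell, among them Fyn and Rras2. The other 11 did not pass. Fyn, a kinase of early myelination, fell by 0.57 ± 0.09, and Rras2, a Ras-related GTPase, fell by 1.07 ± 0.19 (limma adjusted p = 2.8e-05 and 0.000119). Of the 17, 5 were higher at days 21–34 than at days 55–319, against 2.14% of all rows. Among them was Gpr17, a receptor that marks the stage, by 1.17 ± 0.23 (adjusted p = 0.00463). The list held 1 member, Lims2, an adaptor of integrin adhesions. Lims2 was at 9.15, 9.06, 9.11, 6.72 and 7.77 RPKM at days 21–34 and differed by -0.03 ± 0.18 from days 10–12 (adjusted p = 0.932). Of 7 tested precursor genes 2, Pdgfra and Cspg4, fell from days 10–12 to days 21–34, against 16.6% of all rows. Their differences were -0.85 ± 0.15 and -0.65 ± 0.17 (limma adjusted p = 0.000129 and 0.00461), and no gene of that list was a member.

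Cholesterol is a major lipid of myelin, and none of the 24 tested genes of its synthesis was a member. In transgenic mice 14 of the 24 fell from days 10–12 to days 21–34 and none rose, against 16.6% and 11.3% of all rows. For example, Mvk, mevalonate kinase, fell by 0.81 ± 0.10 (limma adjusted p = 2.75e-06). Of the 24, 5 were higher at days 21–34 than at days 55–319, against 2.14% of all rows. Cyp51, lanosterol demethylase, was higher by 0.36 ± 0.08 (adjusted p = 0.00809). Of 13 fatty acid genes 2 were members, Cers2 and Elovl1, both of which act on the very long chain lipids of myelin. Elovl1, a fatty acid elongase, was at 6.34, 9.08, 6.24, 7.58 and 8.22 RPKM at days 21–34 and rose by 0.40 ± 0.14 from days 10–12 (adjusted p = 0.0366, lost without any of mice 42, 44, 45, 36, 39 or 40). Cers2, a ceramide synthase, differed by 0.31 ± 0.16 (adjusted p = 0.162). Fasn and Acaca, which begin fatty acid synthesis, fell over the same interval, with differences of -0.41 ± 0.07 and -0.34 ± 0.09 (adjusted p = 6.83e-05 and 0.00563).

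**Figure D4:**
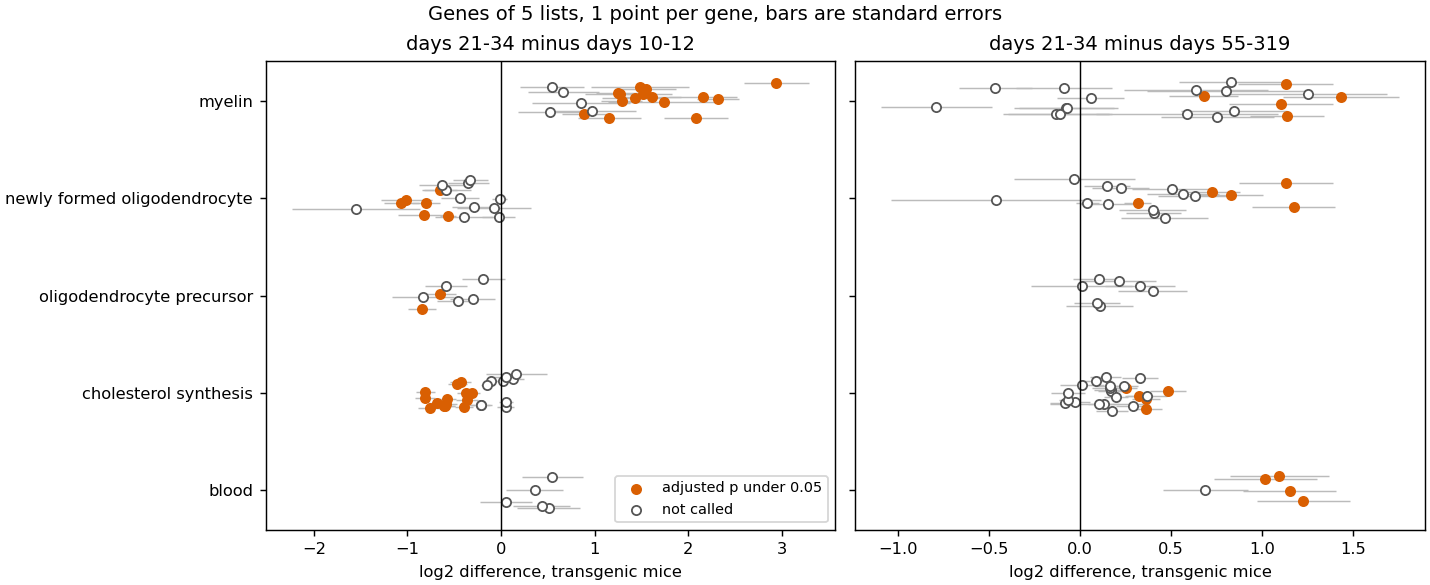
Log2 differences in transgenic mice (horizontal axis) for the genes of 5 lists (vertical axis), days 21–34 minus days 10–12 on the left and minus days 55–319 on the right, with 1 point per gene, standard errors as bars and filled points for limma adjusted p under 0.05. On the left, 15 of 20 myelin genes are filled to the right of 0 and 14 of 24 cholesterol genes to the left, against 11.3% and 16.6% of all rows.

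Several other members with roles in oligodendrocytes were picked for description after their values were seen. Erbb3, a neuregulin receptor, rose by 1.05 ± 0.23 from days 10–12 to days 21–34 (limma adjusted p = 0.0013) and Lpar1, a lysophosphatidic acid receptor, by 0.87 ± 0.19 (adjusted p = 0.00133). Both also stood higher at days 55–319 than at days 10–12, by 0.62 ± 0.19 and 0.39 ± 0.16 (adjusted p = 0.0108 and 0.0473). Gal3st1, which turns galactosylceramide into sulfatide, did not differ from days 10–12 by this test (-0.09 ± 0.29, adjusted p = 0.85). Days 55–319 were lower than days 10–12, with a difference of -0.75 ± 0.24 (adjusted p = 0.0139). Pdlim2, a PDZ and LIM domain protein, rose by 1.19 ± 0.22 from days 10–12 (adjusted p = 0.000202) and was higher than at days 55–319 by 0.73 ± 0.18 (adjusted p = 0.0234, lost without mouse 42 or mouse 43). Between days 10–12 and days 55–319, 10 members rose, against 20.4% of all rows, and 10 fell, against 24.8%. From days 3–7 to days 10–12, 45 members rose, against 18.8% of all rows, and none fell (1 at an unadjusted p under 0.05), against 26.9%.

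Prom1, which encodes the membrane glycoprotein prominin and was named after its values were seen, was at 5.28, 4.98, 3.65 and 4.60 RPKM in control mice 13 to 16 and at 4.73, 4.42, 5.17, 3.63 and 4.33 RPKM in transgenic mice 41 to 45. All 5 were above the transgenic mice of days 10–12, which were at 2.69, 2.23, 3.06, 2.28 and 2.68 RPKM. The differences were 0.68 ± 0.15 against days 10–12 (limma adjusted p = 0.001), 0.64 ± 0.12 against days 55–319 (adjusted p = 0.0043) and 0.68 ± 0.14 against days 3–7 (adjusted p = 0.000202). Unlike the myelin members, Prom1 was higher in mouse 41 than in mouse 42.

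ENSMUSG00000092235, ranked first in controls, has no symbol in the annotation used. Its level was 15.4, 16.3, 3.90 and 11.6 RPKM in control mice 13 to 16 and 5.41, 14.2, 7.47, 5.66 and 5.94 RPKM in transgenic mice 41 to 45. At days 10–12 the transgenic values were 2.14, 2.13, 5.41, 1.27 and 3.36 RPKM, so mouse 38 reached the level of mouse 41. The reads behind the 9 values of days 21–34 numbered from 29 to 106. The difference was 1.32 ± 0.40 against days 10–12 (limma adjusted p = 0.0145) and 1.51 ± 0.33 against days 55–319 (adjusted p = 0.0101), and both were lost without mouse 42, as was the first without mouse 39. Myl4, a myosin light chain, had a transgenic score of 1.19 against 0.64 in controls. It was at 5.32, 4.34, 8.87, 2.91 and 3.93 RPKM in transgenic mice 41 to 45 and rose by 1.48 ± 0.51 from days 10–12 (adjusted p = 0.0304, lost without any of mice 41, 43, 45, 36, 37 or 38).

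Haemoglobin and haem synthesis genes were a second group. All 5 genes of the blood list found in the table were members: Hba-a1, Hba-a2, Hbb-bt and Hbb-bs, the globin chains, and Alas2, which begins haem synthesis in red cells. The members of each globin pair are near-identical copies, so the split of reads between them is uncertain. Hbb-bt was at 100.6, 14.7, 22.2 and 22.2 RPKM in control mice 13 to 16, and the other 3 globins were also highest in mouse 13. The summed level of the list was 669 RPKM in mouse 13 and 146–189 RPKM in mice 14 to 16. In transgenic mice Hbb-bt was at 32.2, 23.7, 11.0, 13.2 and 20.3 RPKM at days 21–34 and 11.4–17.3 RPKM at days 10–12, with overlap, and no member of the list rose between these windows by limma (none at an unadjusted p under 0.05). All 4 globins were higher at days 21–34 than at days 55–319, against 2.14% of all rows. Hbb-bt was higher by 1.23 ± 0.25 and Hba-a1 by 1.02 ± 0.28 (limma adjusted p = 0.00658 and 0.0421), and all 4 calls were lost without mouse 41. Those of Hba-a1, Hba-a2 and Hbb-bs were also lost without mouse 42, and that of Hba-a1 without mouse 44, 45 or 40. The summed blood list was 109–240 RPKM in the transgenic mice of days 21–34, 97.7–142 RPKM at days 10–12, 47.6–196 RPKM at days 3–7 and 48–129 RPKM at days 55–319.

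A pair of members act in the vessel wall. Slco1a4, a transporter of the blood-brain barrier and the only member on the endothelial list, was at 12.7, 13.7, 14.8, 11.1 and 10.4 RPKM at days 21–34. At days 10–12 it was at 4.05, 4.07, 5.11, 5.83 and 5.64 RPKM, with no overlap. It rose by 1.26 ± 0.20 (limma adjusted p = 3.61e-05) and stayed higher at days 55–319 than at days 10–12, by 0.89 ± 0.17 (adjusted p = 9.24e-05). Mcam, an adhesion molecule of vessel cells named after its values were seen, was at 7.55, 9.53, 9.10, 6.84 and 8.66 RPKM at days 21–34 and was higher than at days 55–319 by 0.82 ± 0.14 (adjusted p = 0.00245). Its call held whichever of the 10 transgenic mice of days 10–34 was left out, and was lost with adults of days 55–111 (adjusted p = 0.0591, limma). Of the 11 genes of the endothelial list, 5 were higher and 3 lower at days 21–34 than at days 10–12 in transgenic mice, against 11.3% and 16.6% of all rows. Their summed level, to which Slco1a4 itself contributes, was 91.9–104 RPKM in the transgenic mice of days 21–34. It did not overlap with the 70.0–85.4 RPKM of days 10–12, and the sum without Slco1a4 was not examined. In controls the summed level was 90.7–113 RPKM at days 21–34 and 76.5–124 RPKM at days 10–12, with overlap. The part of the summed level in the results for Slco1a4 and Mcam was not tested.

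Among the short RNA members were 6 microRNA loci found in the RefSeq table. The mature sequences of 3 are shown because miR-338 and miR-219 are known for their roles in oligodendrocyte maturation and Mir221 had the largest gap between the control and the transgenic score of all members. Capitals mark the seed, bases 2 to 8, which pairs with target RNAs. The 9 mature sequences of the 6 loci had 9 different seeds, so no seed was shared.
miR-338-3p: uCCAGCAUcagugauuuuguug
miR-219a-5p: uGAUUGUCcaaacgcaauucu
miR-221-3p: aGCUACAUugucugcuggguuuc
The libraries were made from polyA RNA, so these rows count reads over the hairpin locus and not the mature microRNA. Mir338, at chr11:120014765-120014862 on GRCm38.p6, was at 4.06, 3.98, 1.74 and 0.86 RPKM in control mice 13 to 16, which came from 4, 4, 2 and 1 reads. Its transgenic values of 1.06, 3.27, 5.49, 2.97 and 1.83 RPKM came from 1 to 5 reads, and it differed from days 10–12 by 0.87 ± 0.56 (limma adjusted p = 0.26). Mir219a-2, at chr2:29845631-29845727, came from 3 to 8 reads in controls and 1 to 6 in transgenic mice and differed by -0.03 ± 0.65 (adjusted p = 0.98). Both were picked after their values were seen. Mir221, at chrX:19146294-19146388, was at 2.09, 5.14, 3.59 and 1.77 RPKM in controls (2 to 5 reads), while of the transgenic mice only mouse 42 had reads, 2 in number. Its control score of 1.08 stood against a transgenic score of -1.31, and the differences of -0.81 ± 0.69 and -1.23 ± 0.58 did not pass (adjusted p = 0.413 and 0.251).

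Few reads marked a whole group of members. Read numbers could be recovered for 83 members, and 24 of them had at most 10 reads in every library of days 21–34, a limit chosen after the values were seen. Of these 24, 12 had a transgenic score above 0, with a median of 0.01, and limma called none higher against days 10–12 or days 55–319 (2 and 3 at an unadjusted p under 0.05). The other 76 include the members whose read numbers could not be recovered. Of these 76, 58 had a transgenic score above 0, with a median of 0.32, and they held all 19 calls of each test. Mir5133, Gm15723, Cox20 and ENSMUSG00000090413, which with Mir221 had the 5 lowest transgenic scores, from -1.56 to -1.22, were all among the 24. The row with the symbol Cox20 had steps that imply a counted length of 79 bases, so it does not cover the messenger RNA of that name, and its control values of days 21–34 came from 1 or 2 reads. The row of mt-Tp, the mitochondrial proline tRNA, had more reads, from 214 to 251 in the control mice of days 21–34. It was at 373, 347, 304 and 269 RPKM in control mice and 327, 70.2, 254, 326 and 298 RPKM in transgenic mice. Since the libraries were made from polyA RNA, the row counts reads over the locus and not the mature tRNA. The difference of mt-Tp from days 10–12 was 0.16 ± 0.58 (adjusted p = 0.87).

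Some members known from other brain regions were high in part of the mice of the window and low in the rest. Tph2, the enzyme of serotonin synthesis in raphe neurons, ranked second in controls with a score of 1.63. It was at 13.5, 0.305, 0.207 and 9.99 RPKM in control mice 13 to 16 and at 0.722, 2.34, 0.598, 0.37 and 12.0 RPKM in transgenic mice 41 to 45. Outside that window it reached 8.48 RPKM in a transgenic mouse of days 10–12 and 7.28 RPKM in one of days 55–319. Its differences of 0.55 ± 0.81 and 1.07 ± 0.68 did not pass (limma adjusted p = 0.657 and 0.416). Slc6a4, the serotonin transporter and no member, was at 5.75, 0.02, 0.08 and 3.65 RPKM in the same control mice and at 4.22 RPKM in transgenic mouse 45 and 0 in mice 41 and 44. The summed level of the serotonin neuron genes, a list of 8 chosen after the values were seen of which 7 were in the table, was 43.8 and 34.1 RPKM in control mice 13 and 16 and 34.9 RPKM in transgenic mouse 45. It was 10.5–18.2 RPKM in the other 6 mice of the window.

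Ddc, which makes monoamines, Sncg, a synuclein, and Glra1, a glycine receptor subunit, were also highest in control mice 13 and 16, and were named after their values were seen. Glra1 was at 3.50, 0.04, 0.08 and 6.79 RPKM in control mice 13 to 16. None of the 3 passed a test, with adjusted p from 0.311 to 0.946 against the other windows. Th, tyrosine hydroxylase, was at 5.93, 3.88, 5.41 and 5.31 RPKM in control mice 13 to 16, and in transgenic mice it was 10.6 RPKM in mouse 42 and 1.23–2.50 RPKM in the other 4. Frmd7 and Ms4a15, named after their values were seen, were highest in control mouse 15 and in transgenic mouse 42, the mice with the highest summed levels of the olfactory bulb and neuroblast list, 94.4 and 79.8 RPKM against 22.8–47.7 RPKM in the other 7. The part of neighbouring tissue in these members was not tested. For Tph2, Ddc, Sncg and Glra1, line cannot be told apart in controls: mice 13 and 16 were of line a, mice 14 and 15 of line b.

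**Figure D5:**
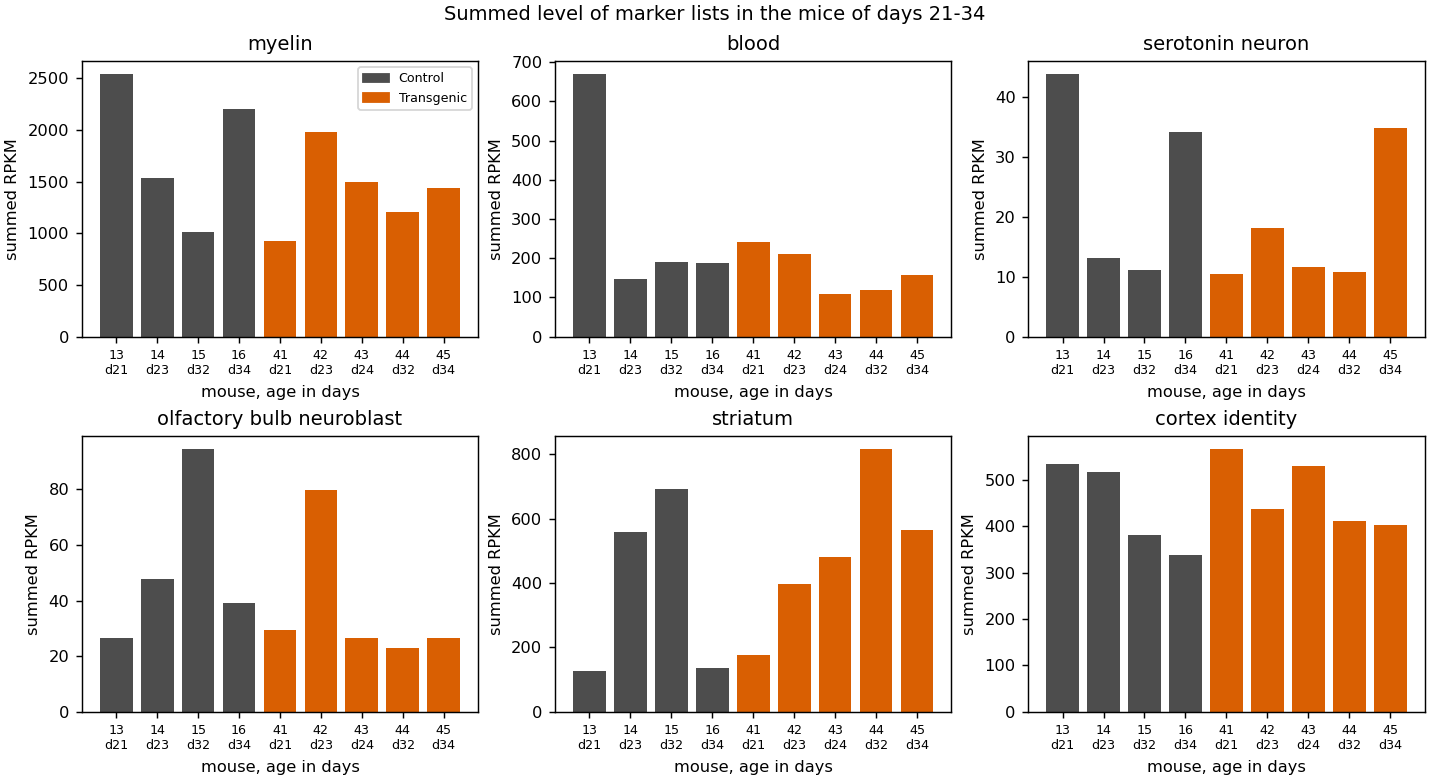
Summed RPKM of 6 gene lists (vertical axes) in the 9 mice of days 21–34 (horizontal axes, mouse number over age in days), grey for controls and orange for transgenic mice. Control mouse 13 has the highest bar for myelin, blood and serotonin neuron genes, and control mice 13 and 16 have the lowest bars for striatum.

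Abi3bp and Nmbr, 2 further members near the top of the control ranking, lay closer together in controls than in transgenic mice. Abi3bp, a protein of the extracellular matrix, was at 13.4, 13.7, 13.2 and 9.24 RPKM in control mice 13 to 16. In transgenic mice it was at 13.1, 12.4, 6.32, 4.97 and 2.63 RPKM, and its difference of 0.80 ± 0.58 from days 10–12 did not pass (limma adjusted p = 0.326). Nmbr, the neuromedin B receptor, was at 5.10, 6.57, 7.02 and 6.64 RPKM in controls and at 5.52, 6.15, 2.86, 2.75 and 0.873 RPKM in transgenic mice, with a transgenic score of -0.06.

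Within days 21–34, 80 members had a higher mean log2 level at days 21–24 than at days 32–34 in controls (2 mice against 2), against 40.5% of all rows, and 62 in transgenic mice (3 against 2), against 46.4%. These are descriptions, as age and animal cannot be told apart with so few mice. At day 538 the single control mouse was below every control mouse of days 21–34 for 71 members, against 32.7% of all rows, and the values of the latter mice chose the members. The single transgenic mouse was below every transgenic one for 45, against 21.8%. The summed myelin members were at 408 and 744 RPKM in these 2 mice. Over days 55–319 in the 13 transgenic adults, 1 member, mt-Tp, fell with age, with a slope of -0.87 ± 0.10 per doubling of age (limma adjusted p = 0.016), against 0.00671% of all rows, and none rose (none at an unadjusted p under 0.05). When the adult window was limited to the 6 transgenic mice of days 55–111, 85 members were still lower in adults by value, as with the full window, with a median difference of 0.38 against 0.44. No member then passed with limma (36 at an unadjusted p under 0.05), and the lowest adjusted p was 0.0591.

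The rows outside the 100 whose levels followed the mean member profile most closely over 28 control mice were Slc44a1, a choline transporter, with a Pearson r of 0.93, Cmtm5 with 0.92 and Degs1, a ceramide desaturase, with 0.91. They ranked 121, 120 and 371 by the control score. These mice chose the profile, so the values describe likeness only.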

How the data were processed

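PolyA RNA of prefrontal cortex was sequenced in 59 mice, 1 library each. Reads were aligned with STAR to mm9, per the submitters' processing notes. The authors deposited RPKM values in a single table with 1 column per mouse. Not given in the sources used here: the counting tool, the annotation and the STAR version. Symbols were taken from GENCODE vM21 for 17734 identifiers, and 876 rows had none. RPKM carries no counts, but low values rose in steps of 1 read, and in 6860 of 7076 rows tried all values were whole reads within 0.05 reads. From these steps the depth was estimated at 8.85–12.7 M reads per library, with a median of 10.2 M, so a row with a few reads is subject to large counting error.

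Values were analysed as log2(RPKM + 0.5), a scale that understates changes of low genes. The 29 transgenic mice of days 3–319 entered a limma model (version 3.58.1, R 4.3.3) that had window, line and sex as terms, a trended prior and Benjamini-Hochberg adjustment over 14896 rows. The threshold was 0.05 and tests were two-sided. Errors are standard errors of the fit. The fit was tested on simulated data. Each mouse is a separate animal, so p-values measure the spread between animals. The labels name no sequencing batch.

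Members, windows and the 28 gene lists were chosen with earlier results of these data known. Genes named by rule were the 20 members with the highest control score, members on a list, the 5 highest and 5 lowest transgenic scores, ranks 99 to 102, the leading genes of each list described, GLUD2 and the 3 rows most like the members. Others are said to be chosen after their values were seen. The remaining members are given by counts, and some genes are not reported here. Other pseudocounts, filters, scalings, weights, adult windows and left-out mice were tried. RefSeq sequences of GRCm38.p6 were used for promoters and microRNAs, a build other than that of the alignment, and no value was read by coordinates.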

Additional observations from a re-analysis of the deposited data

Results flagged for a closer look

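In 7 of 74 tested groups of named members at days 21–34, 1 mouse lay far from the others, measured as its gap to the nearest mouse divided by the range of the group. Chance gives about 1 in 20 groups where the groups are independent. These groups share the same mice, and the control values chose the members, so the count is a description and no test. In controls, Abi3bp was lowest in mouse 16, at 9.24 RPKM, with a gap of 0.900 of the range. Mal was lowest in control mouse 15, at 70.0 RPKM (gap 0.901), and Hbb-bs was highest in control mouse 13, at 323 RPKM (gap 0.858). In transgenic mice, Opalin was lowest in mouse 41, at 4.81 RPKM (gap 0.817), and mt-Tp was lowest in mouse 42, at 70.2 RPKM (gap 0.834). Mir221 was highest in transgenic mouse 42, at 2.25 RPKM from 2 reads, and ENSMUSG00000090413 in mouse 45, at 1.30 RPKM from 1 read. Each had a gap of 1.0 because the other 4 mice were at 0.

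The row with the symbol Cox20 went opposite ways in the 2 genotypes. All 4 control mice of days 21–34 were above, and all 5 transgenic mice below, the highest mean of the other windows of their genotype. The score was 0.82 in controls and -1.22 in transgenic mice. The difference was not tested, and the control values came from 1 or 2 reads.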

How the results depend on the processing

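The 19 members higher at days 21–34 than at days 10–12 became 35 with array weights, 10 without transgenic mice 42 and 45 (chosen after seeing the data) and 12 to 27 without 1 mouse, where only the 10 transgenic mice of days 10–34 were left out in turn and none of days 3–7 or 55–319. The 19 higher than at days 55–319 became 31 with array weights, 0 with adults of days 55–111, 3 without mice 42 and 45 and 5 to 22 without 1 mouse. The 8 higher in all 3 tests became 22, 0, 2 and 2 to 12. Over all rows, the 319 rows higher than at days 55–319 became 551, 16, 142 and 97 to 359, the 15 higher in all 3 tests became 39, 1, 6 and 5 to 22, and the 1690 higher than at days 10–12 became 1276 to 1639 without 1 mouse. The 59 members higher than at days 3–7 stayed at 56 to 61, and the 45 higher at days 10–12 than at days 3–7 at 40 to 46, without 1 mouse. Between days 10–12 and days 55–319 the 10 that rose became 6 of the 54 members tested with a mean of at least 2 RPKM, and 7 to 14 without 1 mouse. The 10 that fell became 4 with adults of days 55–111 and 5 to 11 without 1 mouse, with 5 without mouse 38 or mouse 40. The single slope with age became 0 with day 538 included. The rule kept 55 members with a mean of at least 2 RPKM, 34 with the score in transgenic mice, 50 without control mice 13 and 16 (chosen after seeing the data) and 75 to 94 without 1 of the 8 control mice of days 10–34. The causes were not tested. The other pseudocounts, scalings and covariates kept the member counts above within 1.5 times, and the 1 member lower than at days 3–7 became 0 without covariates. No paired analysis was possible because each mouse number occurs once and pairs no mice. Depth limits the members with at most 10 reads.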
